A study of Mus musculus with 6 samples.

Results

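The genes described here encode the enzymes and partners that shorten the poly(A) tail of messenger RNA, remove its cap and degrade it from either end. They were chosen by symbol from the deposited expression table: every Cnot, Exosc and Lsm gene with a number, Edc3, Edc4, Dcp1a, Dcp1b, Dcp2, Xrn1, Xrn2, Pan2, Pan3, Parn, Dis3, Dis3l, Dis3l2, Patl1, Tob1, Tob2, Btg1, Btg2 and Pelo. Of 55367 rows, 53 met this rule, of which 52 had enough reads to be tested. The remaining gene, Exosc6, was listed at 0 in all 6 libraries.

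The cells were LLC cells, a wild-type mouse line derived from Lewis lung carcinoma. They were cultured for 46 h with the solvent DMSO (3 libraries) or with 5 µM STM2457 (3 libraries), a small molecule that blocks METTL3, the methyltransferase behind most N6-methyladenosine (m6A) in messenger RNA. The comparison asks how transcript levels differ between STM2457 and DMSO. Both groups carry the same genotype, only 1 line and 1 time point were sampled, and nothing in the labels names separate cultures, so the p-values cover the spread between these libraries alone, which may be technical.

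Most messenger RNAs are degraded in the same order. The PAN2-PAN3 pair and the CCR4-NOT complex shorten the poly(A) tail, after which the LSM ring and its partners promote removal of the cap by DCP2, and XRN1 degrades the body from the 5′ end. The RNA exosome, a barrel of EXOSC subunits with an attached nuclease, degrades it from the 3′ end. RNA carrying m6A is brought to this machinery in part by the reader YTHDF2, which binds CNOT1 and thereby recruits CCR4-NOT.

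The libraries held 17671714 to 17917208 reads in genes, as recovered from the deposited log2 values. A normalised read is a recovered read divided by the library's size factor (0.995 to 1.01). Folds were fitted by limma-voom on the recovered reads, and a gene is said to have risen or fallen where limma on the deposited values gave an adjusted p under 0.05 (Benjamini-Hochberg over 12618 tested genes). Each mean is given with its SD over 3 libraries and each log2 fold with its SE. Mettl3, the target of the inhibitor, had 469, 601 and 540.4 normalised reads in the 3 DMSO libraries, in replicate order here and below, and 499, 451 and 513 with STM2457 (adjusted p = 0.15, or 0.04 with upper-quartile centring and 0.0089 when DMSO replicate 1 was left out). Its transcript level does not test an inhibitor of the enzyme's activity. The epithelial markers Epcam and Cdh1 had 0 reads in every library and Krt8, Krt18 and Krt19 at most 8. The summed reads of the mesenchymal markers Vim, Cdh2 and Fn1 were 93083 to 93804 in DMSO and 74636 to 76326 in STM2457. Vim and Fn1 made up nearly all of this sum and were lower in STM2457. Cdh2 went the other way, with 473 to 535 reads in DMSO and 638 to 672 in STM2457. The leukocyte markers Adgre1, Cd3e and Itgam had 0 reads in every library, and the leukocyte list summed to 90 to 110 reads per DMSO library and 87 to 110 per STM2457 library, nearly all from Cd68. The fibroblast list (Col1a1, Col1a2, Dcn, Pdgfra and Lum) summed to 300 to 338 reads in DMSO and 215 to 228 in STM2457. Within it, Col1a2 went from a mean of 135 reads to 63, while Pdgfra had a mean of 113 in both groups. The means of Col1a1, Dcn and Lum were also lower in STM2457. The endothelial list summed to 3 to 5 reads in DMSO and 4 to 9 in STM2457, and the list of differentiated lung epithelium to 17 to 25 and 23 to 26. The part of these markers in the results below was not tested. In bulk RNA, fewer cells of a kind and less RNA per cell cannot be told apart.

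Of the 52 tested genes, 19 rose, 9 fell and 24 passed neither way, which is 36.5% higher and 17.3% lower. Among all tested genes 30.7% rose and 25.7% fell, or 56.3% in either direction, so a large share of transcripts differed and the share of RNA decay genes called, 53.8%, lies near that background. Limma-voom on the recovered reads also called 19 higher and 9 lower, beside 30.6% and 25.6% of all tested genes (56.2% either way). With the libraries centred on their upper quartile, 14 rose and 18 fell, beside 22.3% and 38.2% of all tested genes (60.5% either way). Without STM2457 replicate 2, 15 rose and 4 fell, while over all tested genes that setting gave 3402 higher and 2704 lower, against 3868 and 3240 with all libraries. In 31 of the 52 genes the DMSO and STM2457 libraries did not overlap, 19 with STM2457 above and 12 below. Over all tested genes the share that did not overlap was 61.8% (33.4% above, 28.4% below).

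The sizes were modest. The log2 folds of the 52 genes ran from -0.53 to 0.85 with a median of 0.04, against 0.01 over all tested genes. Their median absolute log2 fold was 0.12, against 0.21 over all tested genes. Only Tob1, Lsm10 and Dis3l both passed the test and changed at least 1.5-fold, which is 5.77% of the 52 genes beside 11.5% of all tested genes. The 52 genes together took 3599 to 3645 CPM in the DMSO libraries and 3665 to 3719.7 in the STM2457 libraries. Every STM2457 library thus lay slightly above every DMSO library in their summed share, a small gap that depends on scaling. The upper quartile of the log2 values, against its mean over libraries, was -0.0285 to -0.013 in DMSO and 0.0174 to 0.0204 in STM2457. The sum was not computed with upper-quartile centring or for other gene sets.

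**Figure D1:**
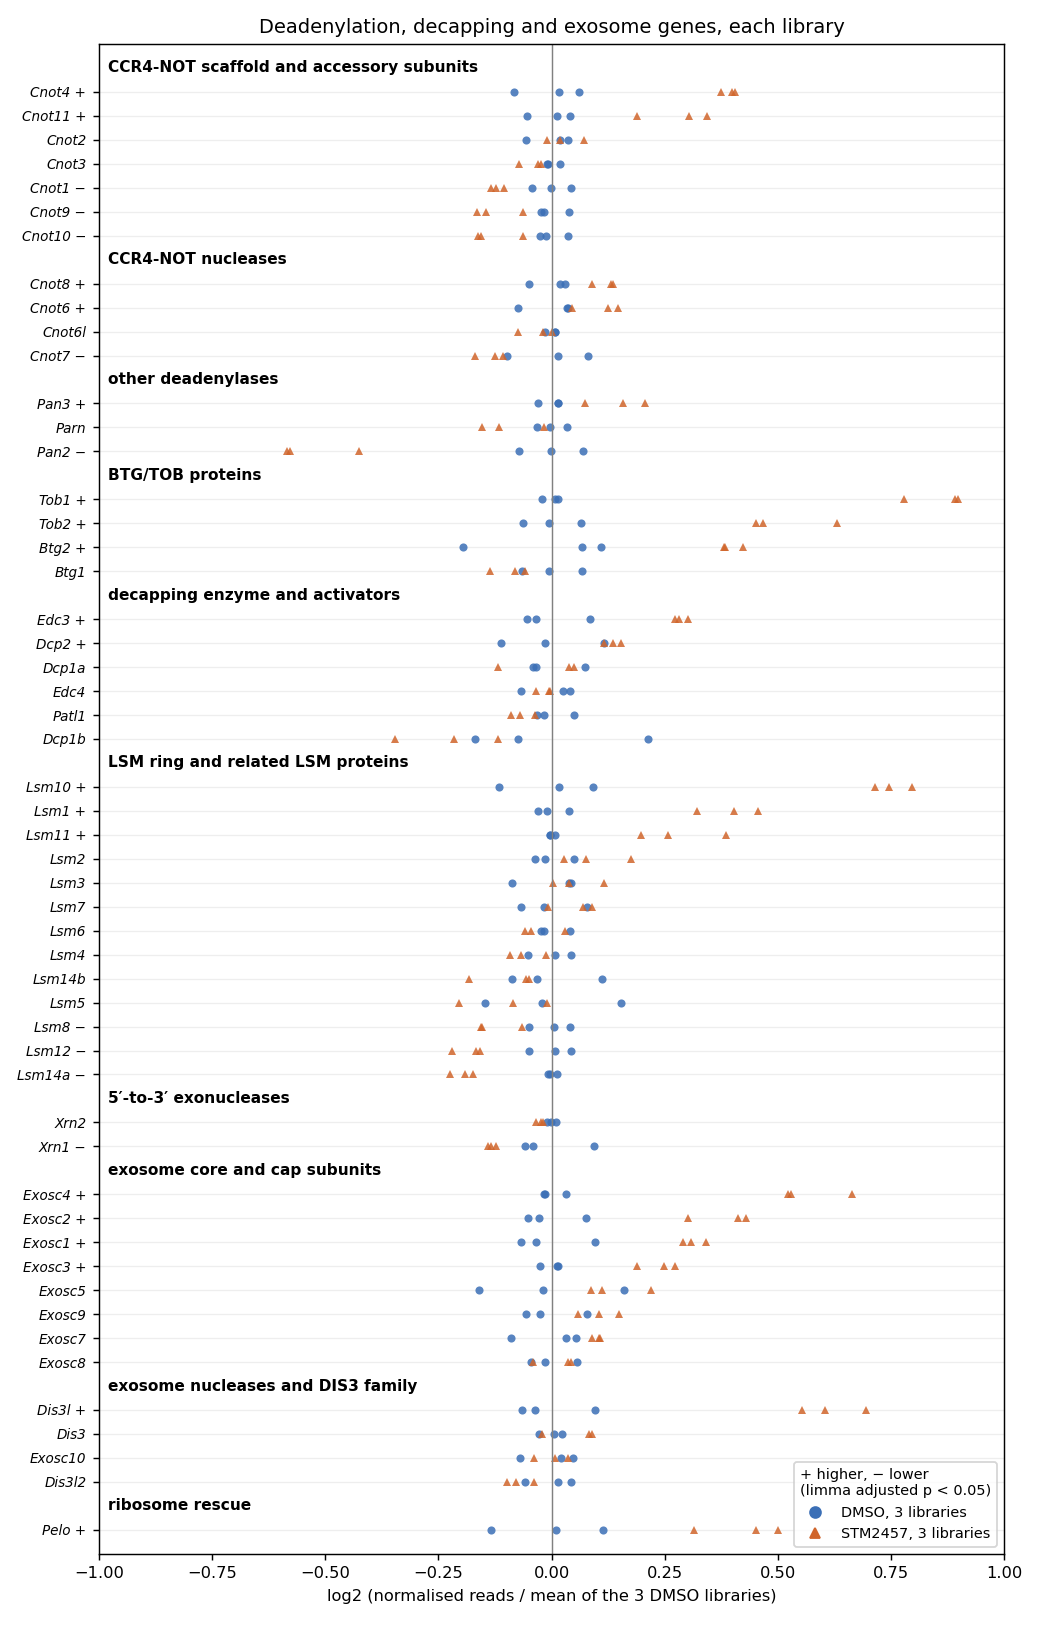
Level of each of the 52 tested genes in each library, as the log2 of normalised reads over the mean of the 3 DMSO libraries, grouped by role (circles, DMSO; triangles, STM2457; + rose and − fell by limma at an adjusted p under 0.05). Tob1, Lsm10 and Dis3l lie farthest right and Pan2 farthest left, while most triangles sit within 0.25 of the DMSO mean.

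The largest rise lay in the BTG/TOB family, proteins that bind the CNOT7 and CNOT8 nucleases and link them to RNA-bound proteins. Of its 4 genes 3 rose and none fell, beside 30.7% higher and 25.7% lower over all tested genes. Centring the libraries on their upper quartile instead left 2 higher (Tob1 and Tob2) and 1 lower (Btg1), beside 22.3% and 38.2%. Tob1 (GRCm38 chr11:94211454-94215495, plus strand) had the largest rise of all 52 genes. It had 413, 411 and 403 normalised reads in DMSO and 701, 761 and 758 in STM2457. The groups lay far apart, and the DMSO libraries were nearly equal. The mean moved from 409 ± 5.26 to 740.2 ± 33.8 normalised reads, a 1.81-fold rise (log2 fold 0.85 ± 0.0598, limma adjusted p = 1.2e-11).

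Tob2, its closest relative, also binds the poly(A)-binding protein. It had 863, 907 and 829.8 normalised reads in DMSO and 1198, 1343 and 1185 in STM2457. Every STM2457 library was above every DMSO library, with replicate 2 highest in each group. The rise was 1.43-fold (log2 fold 0.52 ± 0.0531, limma adjusted p = 1.4e-08).

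Btg2, an antiproliferative gene known as a p53 target, was scarce. Its reads were 75.1, 62.5 and 77.4 in DMSO and 93.4, 93.4 and 96.1 in STM2457, a 1.32-fold rise (limma adjusted p = 0.0099). The groups did not overlap, but upper-quartile centring ended the call (adjusted p = 0.086), as did leaving out DMSO replicate 2, the lowest library (0.053). Btg1, the abundant paralogue, had 2435, 2315 and 2220.1 in DMSO and 2229, 2196 and 2116 in STM2457. Here the groups overlapped and STM2457 stood at 0.939 of DMSO (limma adjusted p = 0.068), which became a fall under upper-quartile centring (0.0021) and when DMSO replicate 3 was left out (0.03).

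**Figure D2:**
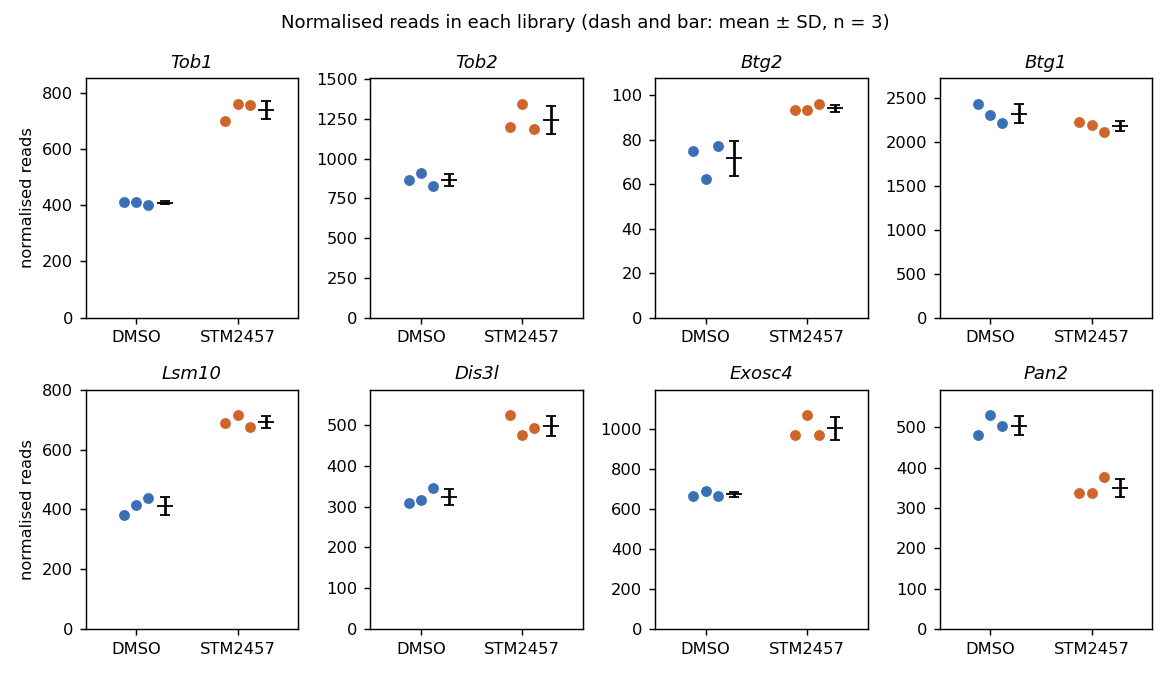
Normalised reads of 8 genes in each library (points; dash and bar, mean ± SD, n = 3), each panel on its own linear axis from 0. The STM2457 points of Tob1, Tob2, Btg2, Lsm10, Dis3l and Exosc4 lie above all DMSO points and those of Pan2 below, while the groups of Btg1 overlap.

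The promoters of Tob1 and Tob2 are shown because the 2 relatives rose together to different extents. Each runs from 250 bases before to 50 after the gene's start in RefSeq (GRCm38.p6), 5′ to 3′ on the gene's strand, and capitals mark CCAAT or its reverse complement ATTGG. Tob1 lies at chr11:94211204-94211503 on the plus strand and Tob2 at chr15:81858277-81858576 on the minus strand.
Tob1: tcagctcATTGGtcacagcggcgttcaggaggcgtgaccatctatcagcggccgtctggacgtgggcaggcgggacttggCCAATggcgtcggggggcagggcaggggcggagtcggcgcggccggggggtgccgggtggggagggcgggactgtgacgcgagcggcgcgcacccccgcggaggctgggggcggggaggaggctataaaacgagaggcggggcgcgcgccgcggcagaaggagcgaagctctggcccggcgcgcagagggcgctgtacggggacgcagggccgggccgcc
Tob2: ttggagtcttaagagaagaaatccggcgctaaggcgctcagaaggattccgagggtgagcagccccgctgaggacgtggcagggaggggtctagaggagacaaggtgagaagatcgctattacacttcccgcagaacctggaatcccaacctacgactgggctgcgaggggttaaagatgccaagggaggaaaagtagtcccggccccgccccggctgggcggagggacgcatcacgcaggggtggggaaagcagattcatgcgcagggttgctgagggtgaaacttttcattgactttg
The Tob1 window holds 2 matches and the Tob2 window 0. The windows are not equivalent in GENCODE M21. There Tob2 starts at chr15:81858796, so its whole window lies inside the annotated gene, whereas the Tob1 window spans the start at chr11:94211454. Of 32851 mouse promoters of this length, 37.4% hold at least 1 match, so such a match is common. A match describes the letters only and is no evidence that a factor binds there.

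Within CCR4-NOT, the main deadenylase, some subunits rose and others fell. Of its 7 scaffold and accessory genes 2 rose and 3 fell, beside 30.7% higher and 25.7% lower over all tested genes. With upper-quartile centring the counts were 2 and 4, beside 22.3% and 38.2%. Cnot1, the scaffold on which the complex is built, had 5721, 5387 and 5552 normalised reads in DMSO and 5059, 5103 and 5159.5 in STM2457. All 3 STM2457 libraries lay below the DMSO libraries, and the level fell to 0.920 of DMSO (log2 fold -0.12 ± 0.0362, limma adjusted p = 0.0073). Cnot1 kept this call under all 12 alternative settings.

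Cnot10 and Cnot11 encode a pair that binds one end of CNOT1, and they moved in opposite directions. Cnot11 had 1074, 1125 and 1148 normalised reads in DMSO and 1415, 1376 and 1271 in STM2457, a 1.21-fold rise (log2 fold 0.28 ± 0.0481, limma adjusted p = 2.7e-05). Its groups did not overlap. Cnot10 went from 1425 ± 32.2 to 1306 ± 50.7 normalised reads and fell to 0.916 of DMSO (limma adjusted p = 0.018). That smaller fall was lost in 3 of 12 settings, each without 1 library (DMSO replicate 2 and STM2457 replicates 1 and 2, adjusted p = 0.05, 0.08 and 0.092).

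Cnot4, a ubiquitin ligase associated with the complex, gave its highest fold. Cnot4 reads were 770.2, 747 and 697 in DMSO and 972, 978 and 957 in STM2457, a 1.31-fold rise with no overlap (log2 fold 0.39 ± 0.0507, limma adjusted p = 4.5e-07). Cnot9, which binds adaptor proteins such as those of the microRNA pathway, fell to 0.918 of DMSO (limma adjusted p = 0.012), and the call was lost without STM2457 replicate 2 (0.082) or replicate 3 (0.052). Cnot2 and Cnot3, which form the module at the other end of CNOT1, stood at 1.02 and 0.971 of DMSO (limma adjusted p = 0.63 and 0.39). Cnot3 became a fall with upper-quartile centring (0.022).

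The 4 nuclease genes of CCR4-NOT come as 2 pairs of paralogues, CNOT6 or CNOT6L and CNOT7 or CNOT8, of which a complex holds 1 from each. Cnot7 had 1506, 1330.3 and 1439.5 normalised reads in DMSO and 1323, 1267 and 1308 in STM2457 and fell to 0.913 of DMSO (limma adjusted p = 0.021). Cnot8 had 1021, 1069 and 1078 in DMSO and 1159, 1157 and 1123 in STM2457 and rose 1.09-fold (limma adjusted p = 0.031). Neither pair of groups overlapped, yet Cnot7 came within a few reads of doing so, with its lowest DMSO library at 1330.3 and its highest STM2457 library at 1323. The Cnot7 call ended on leaving out DMSO replicate 1 (0.11), DMSO replicate 3 (0.065) or STM2457 replicate 2 (0.099). The Cnot8 call was lost in 5 settings, among them upper-quartile centring (0.36) and leaving out DMSO replicate 1 (0.098), STM2457 replicate 1 (0.094) or STM2457 replicate 2 (0.095).

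Cnot6 had 1932, 1789 and 1929 normalised reads in DMSO and 2053, 2084 and 1942 in STM2457, a 1.08-fold rise (limma adjusted p = 0.04) that passed in only 5 of 12 settings. Upper-quartile centring ended it (0.42), as did leaving out DMSO replicate 2 (0.17) or STM2457 replicate 1 (0.13) or 2 (0.18). Cnot6l had 1244, 1262 and 1263 in DMSO and 1193, 1256 and 1241 in STM2457, with overlap and a level of 0.979 of DMSO (limma adjusted p = 0.57). Under upper-quartile centring, 0 of the 4 nuclease genes rose and 1, Cnot7, fell, beside 22.3% higher and 38.2% lower over all tested genes.

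The 2 genes of the PAN2-PAN3 deadenylase moved in opposite directions. Pan2, the nuclease (GRCm38 chr10:128303335-128321358, plus strand), had 479.7, 529 and 503 normalised reads in DMSO and 338, 336 and 376 in STM2457. Its groups lay far apart, and the level fell to 0.694 of DMSO (log2 fold -0.53 ± 0.0683, limma adjusted p = 3.9e-07), the largest fall of the 52 genes. Pan3, the partner that holds the nuclease on RNA, had 672, 693 and 693 in DMSO and 722, 765 and 792 in STM2457 and rose 1.11-fold (limma adjusted p = 0.023). Upper-quartile centring ended the rise of Pan3 (0.24), and so did leaving out DMSO replicate 1 (0.058), STM2457 replicate 2 (0.071) or STM2457 replicate 3 (0.12). Parn, a deadenylase that trims many small nuclear and nucleolar RNAs, had 984, 963 and 1009.6 in DMSO and 973, 909 and 886 in STM2457. Its groups overlapped, at 0.936 of DMSO (limma adjusted p = 0.11), and it fell with upper-quartile centring (0.0064). Leaving out STM2457 replicate 1 also called it lower, just under the threshold (0.05 as rounded).

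Of the 6 decapping genes 2 rose and none fell, beside 30.7% higher and 25.7% lower over all tested genes. With upper-quartile centring 1 rose and 2 fell (Dcp1b and Patl1), beside 22.3% and 38.2%. Edc3, an enhancer of decapping that binds DCP2, had 592, 538 and 545 normalised reads in DMSO and 678, 675 and 689 in STM2457. The groups did not overlap and the rise was 1.22-fold (log2 fold 0.29 ± 0.0562, limma adjusted p = 0.00013). Of the exon bases of Edc3, 22.1% lie under another gene, Clk3, on the other strand, and no source used here says whether counting used strand. Dcp2, the decapping enzyme itself, had 1245, 1063 and 1137 in DMSO and 1277, 1262 and 1244 in STM2457. DMSO replicate 1 lay inside the STM2457 range, so the 1.10-fold rise (limma adjusted p = 0.024) came with overlapping groups, and it was lost in 6 of 12 settings, with adjusted p = 0.23 under upper-quartile centring, 0.15 and 0.07 without DMSO replicates 2 and 3, and 0.083 and 0.071 without STM2457 replicates 1 and 2.

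Dcp1b, a scarce cofactor of DCP2, had 92.1, 120.1 and 98.4 normalised reads in DMSO and 95.4, 81.5 and 89.2 in STM2457. At 0.860 of DMSO its estimate was the lowest in the decapping group, but the DMSO libraries were spread widely (limma adjusted p = 0.14). Dcp1a, Edc4 and Patl1, which activate or scaffold decapping, stood at 0.993, 0.991 and 0.956 of DMSO (limma adjusted p = 0.91, 0.8 and 0.19).

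The LSM proteins form rings around RNA ends. LSM1 with LSM2 to LSM7 makes the cytoplasmic ring that promotes decapping, and LSM8 in place of LSM1 makes the nuclear ring of U6 small nuclear RNA. Of the 13 Lsm genes 3 rose and 3 fell, beside 30.7% higher and 25.7% lower over all tested genes. With upper-quartile centring the counts were 3 and 6, beside 22.3% and 38.2%. Lsm1, specific to the cytoplasmic ring, had 702, 669 and 678 normalised reads in DMSO and 937, 903 and 853 in STM2457, a 1.31-fold rise (log2 fold 0.39 ± 0.0524, limma adjusted p = 7.3e-07). Lsm8, specific to the nuclear ring, had 1222, 1176 and 1253 in DMSO and 1163, 1094 and 1092 in STM2457 and fell to 0.917 of DMSO (limma adjusted p = 0.025). Neither gene's groups overlapped, but the fall of Lsm8 was lost without DMSO replicate 3 (0.11), STM2457 replicate 2 (0.1) or STM2457 replicate 3 (0.096). None of the 6 genes shared by both rings, Lsm2 to Lsm7, passed the test: they stood between 0.937 (Lsm5) and 1.07 (Lsm2) of DMSO, with adjusted p from 0.066 to 0.7. Upper-quartile centring called Lsm4 (0.015) and Lsm5 (0.048) lower, and Lsm2 was called higher without DMSO replicate 2 (0.02) or STM2457 replicate 3 (0.033).

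LSM10 and LSM11 replace a pair of Sm proteins in the U7 particle, which cuts the 3′ end of replication-dependent histone messages. Lsm10 (GRCm38 chr4:126096623-126098584, plus strand) had 379.6, 416 and 438 normalised reads in DMSO and 689, 715 and 675 in STM2457, the second largest rise of the 52 genes at 1.69-fold (log2 fold 0.75 ± 0.0624, limma adjusted p = 2.6e-10). Lsm11 had 456, 456 and 459 in DMSO and 546, 524 and 597 in STM2457, a 1.21-fold rise (limma adjusted p = 0.00047). Both U7 genes therefore rose with no overlap. Over all tested genes, 30.7% rose and 33.4% had every STM2457 library above every DMSO library. Lsm14a, which represses translation in P-bodies, had 2027, 2057 and 2033 in DMSO and 1807, 1745 and 1786 in STM2457 and fell to 0.872 of DMSO (log2 fold -0.20 ± 0.0394, limma adjusted p = 0.00016). Lsm12, an LSM-domain protein outside the rings, fell to 0.882 (limma adjusted p = 0.00098), and Lsm14b stood at 0.937 (0.12).

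The 5′-to-3′ exonucleases moved little. Xrn1, which degrades decapped messages in the cytoplasm, had 930.4, 837 and 847 normalised reads in DMSO and 795, 791 and 801 in STM2457. DMSO replicate 1 was well above the others, and Xrn1 fell to 0.914 of DMSO (limma adjusted p = 0.037). Without that library the adjusted p was 0.2, and the call was also lost without any 1 of the STM2457 libraries (0.072 to 0.097). Xrn2, the nuclear enzyme that acts in transcription termination, had 3719.7, 3742 and 3771 in DMSO and 3696, 3654 and 3684 in STM2457. Its STM2457 libraries were all lower, but the level was 0.982 of DMSO (limma adjusted p = 0.56), and only upper-quartile centring called it lower (0.027).

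In the exosome the subunits that rose were the 3 cap proteins and 1 of the ring. Of its 8 tested core genes 4 rose and none fell, beside 30.7% higher and 25.7% lower over all tested genes. The counts were also 4 and 0 with upper-quartile centring, beside 22.3% and 38.2%. EXOSC1, EXOSC2 and EXOSC3 form the cap that RNA passes on its way into the barrel. Exosc1 had 1094, 1197 and 1068 normalised reads in DMSO and 1417, 1386 and 1369 in STM2457, a 1.24-fold rise (limma adjusted p = 4.4e-06). Exosc2 had 845, 908 and 832 in DMSO and 1161, 1146 and 1061 in STM2457, a 1.30-fold rise (limma adjusted p = 7.5e-07), with 12.4% of its exon bases under Gm13427 on the other strand. Exosc3 had 942, 941 and 916 in DMSO and 1109, 1128 and 1063 in STM2457, a 1.18-fold rise (limma adjusted p = 0.00014). For each of the 3 cap genes every STM2457 library exceeded every DMSO library, as in 33.4% of all tested genes.

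Among the ring genes, Exosc4 stood apart in size. It had 665, 688 and 666 normalised reads in DMSO and 970.4, 1066 and 966 in STM2457, a 1.49-fold rise (log2 fold 0.57 ± 0.0528, limma adjusted p = 1.9e-09). The groups did not overlap, and 19.8% of its exon bases lie under Oplah on the other strand. Exosc5 had 561, 701 and 619 in DMSO and 666, 730.5 and 677 in STM2457, where DMSO replicate 2 lay above 2 of the STM2457 libraries. The 1.11-fold level (limma adjusted p = 0.076) passed without that library (0.0026). The other ring genes stood at 1.01 (Exosc8), 1.07 (Exosc7) and 1.08 (Exosc9) of DMSO, with limma adjusted p = 0.8, 0.18 and 0.1. Exosc9 was called higher without DMSO replicate 1 (0.032), and 10.8% of its exon bases lie under Ccna2 on the other strand. For Exosc6, 100% of the exon bases lie within exons of Aars on the same strand (GRCm38 chr8:111056339-111057664). No source used here says how reads in such shared bases were treated, so the value listed at 0 does not measure its expression.

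The promoters of the first 2 cap genes are shown because both hold several CCAAT matches within 300 bases, again in RefSeq coordinates of GRCm38.p6 with capitals for CCAAT or ATTGG. Exosc1 lies at chr19:41933265-41933564 on the minus strand and Exosc2 at chr2:31670465-31670764 on the plus strand.
Exosc1: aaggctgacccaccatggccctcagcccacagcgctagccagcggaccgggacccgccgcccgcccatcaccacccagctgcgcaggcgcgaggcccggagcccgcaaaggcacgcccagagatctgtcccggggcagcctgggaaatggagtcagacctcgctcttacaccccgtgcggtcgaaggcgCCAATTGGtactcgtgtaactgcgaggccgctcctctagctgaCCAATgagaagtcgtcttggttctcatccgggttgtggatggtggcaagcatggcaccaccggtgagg
Exosc2: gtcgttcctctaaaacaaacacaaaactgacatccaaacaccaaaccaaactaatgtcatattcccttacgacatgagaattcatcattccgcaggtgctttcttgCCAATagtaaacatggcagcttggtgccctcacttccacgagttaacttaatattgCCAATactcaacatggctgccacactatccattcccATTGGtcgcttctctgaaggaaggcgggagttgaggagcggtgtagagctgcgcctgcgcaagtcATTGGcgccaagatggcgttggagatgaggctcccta
Exosc1 has 3 matches, of which 2 overlap as CCAATTGG, and Exosc2 has 4. Several matches are not particular to genes that rose: Pan2, which fell, has 3, and Cnot3, which the main test did not call, has 4. The corresponding window of Exosc3, the cap gene with the smallest rise, has 0. In GENCODE M21, Exosc3 starts at chr4:45342732 on the minus strand, so that window (45320567-45320866) lies inside the annotated gene. It is therefore not equivalent to a window that spans a start, and whether the motif bears on any change was not tested. Across the 45 members found in the table, 17 of 55 promoter windows (30.9%) held the motif, beside the 37.4% of all promoters.

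The nucleases that work on or beside the exosome differed from one another. Dis3l (GRCm38 chr9:64306756-64341288, minus strand), the nuclease of the cytoplasmic exosome, had 309, 316 and 346 normalised reads in DMSO and 523, 475 and 491 in STM2457. Its groups lay far apart, with a 1.53-fold rise (log2 fold 0.62 ± 0.0694, limma adjusted p = 3.9e-08). Dis3, the nuclear counterpart, had 1692, 1655 and 1713 in DMSO and 1795, 1786 and 1662 in STM2457, with overlap at 1.04 of DMSO (limma adjusted p = 0.32). Exosc10, the second nuclear nuclease, had 2026, 1901 and 2063 in DMSO and 2046, 1944 and 2007 in STM2457. Its level was 1.00 of DMSO (limma adjusted p = 0.97).

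Dis3l2, which degrades uridylated RNA without the exosome, had 371, 398 and 389.8 normalised reads in DMSO and 361, 376 and 366 in STM2457, with overlap at 0.951 of DMSO (limma adjusted p = 0.37). Pelo, which with HBS1L frees ribosomes stalled at the end of a broken message, had 166, 179 and 151 in DMSO and 206, 234 and 226 in STM2457. The groups did not overlap and the rise was 1.34-fold (log2 fold 0.42 ± 0.0966, limma adjusted p = 0.00042), but 67.1% of the exon bases of Pelo lie under other annotated genes, so its reads cannot all be assigned to it. Hbs1l, its partner, went from 1377 ± 39.9 to 1261 ± 48.2 normalised reads and fell to 0.916 of DMSO (limma adjusted p = 0.019). Leaving out DMSO replicate 2 (0.064), STM2457 replicate 2 (0.055) or STM2457 replicate 3 (0.11) ended that call.

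Ratios between paired genes compare partners inside each library and do not depend on how libraries are scaled. The 12 pairs were chosen after the values were known, and with 3 libraries against 3 the smallest p that an exact permutation test can give is 0.1, or 0.12 adjusted over the pairs, so none can pass 0.05. No share over other gene pairs was computed, so the ratios are a description of these pairs alone. The ratio of Pan2 to Pan3 reads was 0.714, 0.764 and 0.726 in DMSO and 0.468, 0.439 and 0.474 in STM2457, so Pan2 reads were fewer relative to Pan3 in every treated library. The ratio of Dis3l to Dis3 was 0.183, 0.191 and 0.202 in DMSO and 0.292, 0.266 and 0.296 in STM2457, a change of 1.48-fold. Lsm1 to Lsm8 went from 0.575, 0.569 and 0.541 to 0.805, 0.826 and 0.781, a change of 1.43-fold.

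Between the deadenylase paralogues, Cnot7 had more reads than Cnot8 in every library, but the ratio moved from 1.35 ± 0.117 to 1.13 ± 0.0354. The corresponding mean ratio of Cnot6 to Cnot6l went from 1.5 ± 0.0719 to 1.65 ± 0.0783. Tob1 to Tob2 moved from 0.472 ± 0.017 to 0.597 ± 0.0378, and Btg1 to Btg2 from 32.7 ± 4.17 to 23.1 ± 0.987. Read ratios between different genes also carry their different lengths, so the changes of a ratio are comparable and its absolute value is not a ratio of molecules. Ratios of Dcp1a to Dcp1b and of Lsm14a to Lsm14b overlapped between groups (exact permutation p = 0.4 and 0.2, two-sided).

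**Figure D3:**
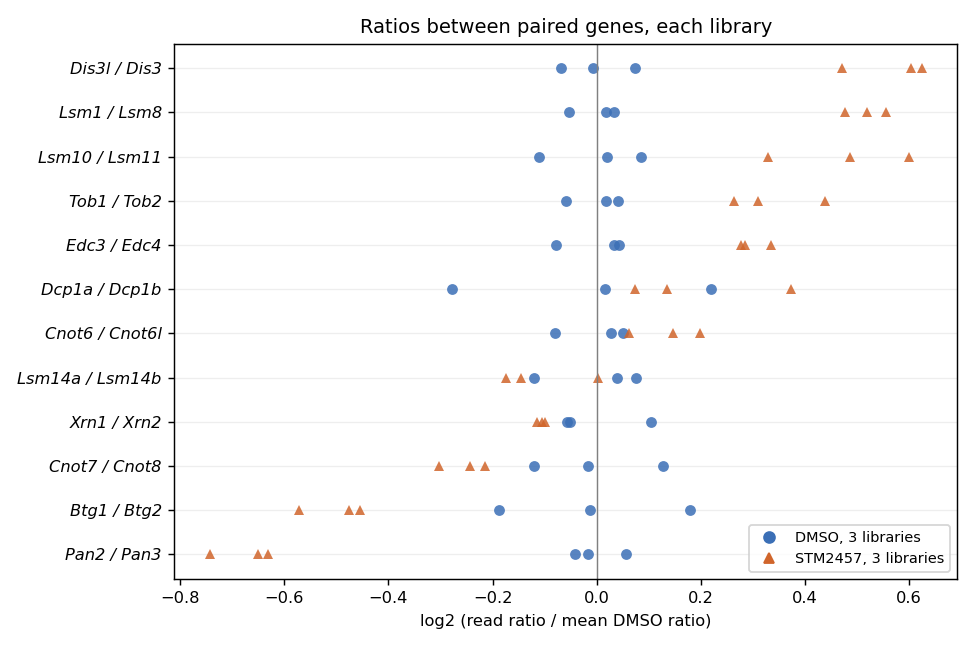
Log2 of the read ratio of 12 gene pairs in each library over the mean DMSO ratio (circles, DMSO; triangles, STM2457). Pan2 to Pan3 lies farthest left and Dis3l to Dis3 farthest right, and the groups overlap for Dcp1a to Dcp1b and Lsm14a to Lsm14b.

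Levels per length show which members of each complex were abundant in DMSO, in CPM per kilobase of annotated exon. Lengths are the union of all exons in the annotation, which understates genes with long rarely used exons. The union has 3152 bases for Lsm2 and 4333 for Exosc8, whose longest coding transcripts have 873 and 1300. For Lsm4 these lengths are 1038 and 925, and for Exosc3 they are 1324 and 1077. The ranks below hold for union lengths only, and the leading genes could differ with transcript lengths. Lsm4 was highest at 105 ± 3.96, then Lsm7 at 60.9 ± 3.2, Xrn2 at 53.2 ± 0.394 and Lsm2 at 44.1 ± 1.63. The scarcest were Dcp1b at 0.925 ± 0.137, Btg2 at 1.48 ± 0.156, Dis3l2 at 2.46 ± 0.0986, Pan3 at 2.6 ± 0.052 and Xrn1 at 2.65 ± 0.152. Dis3l2, Pan3 and Xrn1 do not differ beyond their spread, and Dis3l (3.35 ± 0.188) and Pan2 (3.37 ± 0.181) likewise lie within each other's SD.

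Within CCR4-NOT, Cnot9 was the most abundant per length at 35.1 ± 0.811, followed by Cnot8 at 22.7 ± 0.691. Cnot2 (19.5 ± 0.761), Cnot1 (18.3 ± 0.481) and Cnot11 (18 ± 0.616) had neighbouring levels whose spreads meet, as did Cnot7 (13.9 ± 0.801) and Cnot3 (13.8 ± 0.146). Cnot6l (6.89 ± 0.0786) and Cnot4 (4.27 ± 0.228) were lowest. In the exosome, Exosc3 (39.9 ± 0.821) and Exosc10 (31.4 ± 1.15) led. The nuclear nuclease Dis3 was at 12.3 ± 0.139, above the cytoplasmic Dis3l.

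**Figure D4:**
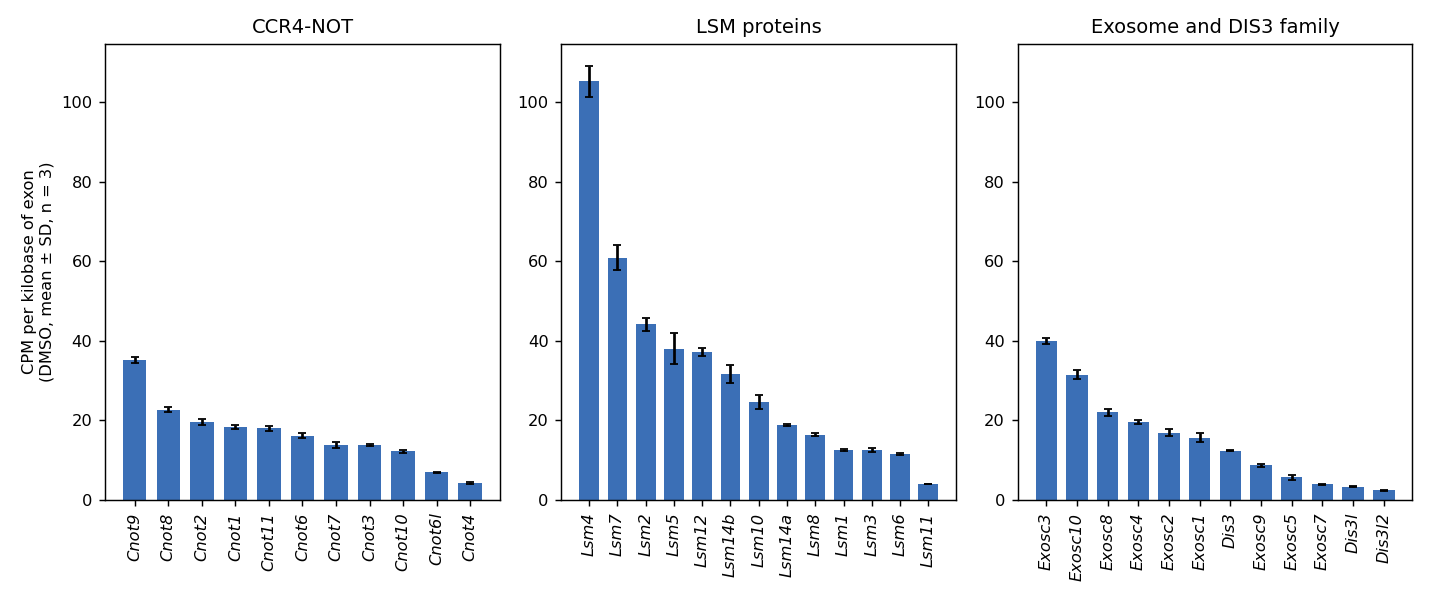
Level of each gene of CCR4-NOT, the LSM family and the exosome with the DIS3 family in DMSO, in CPM per kilobase of exon (bars, mean; error bars, SD, n = 3; linear axis from 0). With exon-union lengths, Lsm4 reaches 105, Cnot9 leads CCR4-NOT at 35.1 and Exosc3 leads the exosome at 39.9.

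Other genes of the same pathways were followed in 6 lists holding 115 tested genes, of which 49 rose and 24 fell (34 and 31 with upper-quartile centring). That is 42.6% higher and 20.9% lower, beside 30.7% and 25.7% of all tested genes (22.3% and 38.2% with upper-quartile centring), the shares against which each list below is to be read. The median log2 fold of all listed genes was 0.09, beside 0.01 over all tested genes. The list of adaptors that bring deadenylases to RNA had 14 of 28 higher and 3 lower (50% and 10.7%, beside 30.7% and 25.7% of all tested genes), with a median of 0.18, or 10 and 5 with upper-quartile centring. It was drawn broadly and also holds RNA-binding proteins that are not adaptors of this kind, among them Elavl1 and Zc3h12a, which both rose. Elavl1 kept its call under all 12 alternative settings. Zc3h12a (limma adjusted p = 0.024) had overlapping groups and kept its call in 7 of 12, not with upper-quartile centring (0.18). Ythdf2, the m6A reader that recruits CCR4-NOT, went from 1045 ± 21.3 to 1508 ± 41.2 normalised reads, a 1.44-fold rise (limma adjusted p = 3.8e-10). Cpeb4, which binds U-rich elements in messages, rose 1.56-fold (9.7e-07), and Tnrc6c, a partner of Argonaute, rose 1.26-fold (2.9e-06), both by limma adjusted p.

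Of 17 Sm proteins and U6 partners of the LSM ring 10 rose and 1 fell (58.8% and 5.88%, beside 30.7% and 25.7% of all tested genes), with a median of 0.14, or 7 and 2 with upper-quartile centring. Mepce, which caps the 7SK RNA, rose 1.44-fold, while the U4/U6 spliceosomal genes Prpf3 and Ppih rose 1.27-fold and 1.26-fold (limma adjusted p = 1.2e-09, 6.2e-07 and 1.7e-06). Decapping partners and P-body repressors had 6 of 14 higher and 4 lower, with a median of 0.08 (4 and 5 with upper-quartile centring). Dxo, which removes incomplete caps, rose 1.53-fold, Eif4enif1, which binds the cap-binding protein eIF4E, rose 1.16-fold, and Pnrc1 fell to 0.748 of DMSO (limma adjusted p = 1.8e-10, 4.5e-05 and 4.7e-08).

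Genes of poly(A) tail binding, lengthening and uridylation had 6 of 19 higher and 4 lower, with a median of 0.05 (3 and 6 with upper-quartile centring). Pde12, a mitochondrial poly(A) nuclease, rose 1.55-fold and Larp4, which binds poly(A), rose 1.28-fold, while Paip2, an inhibitor of the poly(A)-binding protein, fell to 0.746 of DMSO (limma adjusted p = 1e-09, 5.7e-08 and 1.8e-09). Of 20 nonsense-mediated decay factors 8 rose and 7 fell, with a median of 0.06 (7 and 7 with upper-quartile centring). Smg8 rose 1.46-fold, Smg5 1.32-fold and Magoh 1.33-fold (limma adjusted p = 1.7e-08, 5.4e-09 and 1.3e-07). Exosome cofactors split evenly, 5 higher and 5 lower of 17, with a median of 0.03 (3 and 6 with upper-quartile centring). Zc3h18 rose 1.22-fold and Zcchc8, of the nuclear exosome targeting complex, 1.15-fold, while Gtpbp2, a ribosome rescue factor, fell to 0.722 of DMSO (limma adjusted p = 6.4e-07, 0.00029 and 7.1e-08).

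**Figure D5:**
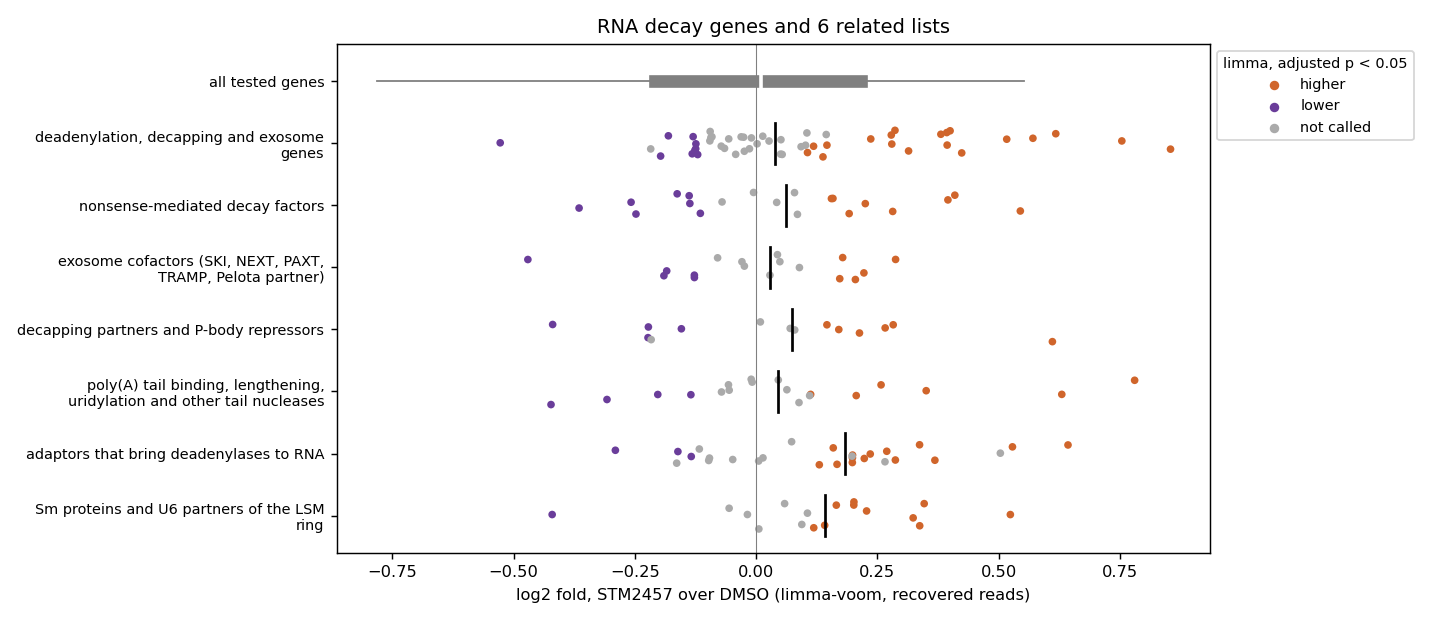
Log2 fold of STM2457 over DMSO by limma-voom for the 52 tested genes and for 6 lists of related genes (orange, rose; purple, fell; grey, neither, by limma; vertical bars, medians; top row, median, quartiles and 5th to 95th percentile of all tested genes). The median of the adaptor list is 0.18 and that of the 52 genes 0.04, beside 0.01 over all tested genes.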

How the data were processed

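Per the labels' protocols, a SMARTER mRNA-Seq kit turned total RNA of LLC cells into libraries. HISAT2 2.2.1, featureCounts 2.0.1 (Subread), DESeq2 and FastQC 0.11.9 are named, with GRCm38, per the submitters' processing notes. The annotation, and whether counting used strand, are not given in the sources. The authors deposited log2 values, 1 per gene symbol and library, and 24138 genes had a value other than 0 in at least 1 library. No source names the transform.

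The values look like a regularised log2 transform, which shrinks each gene's differences: 59.9% of a log2 difference is kept at high counts, and less at low ones. Its equations were inverted to recover reads (ridge penalty 60.46, dispersion 1.888 over the mean plus 0.01105). Recovered values lay within 0.05 reads of a whole number in 98.89% of cases for genes with a mean under 500, 89.51% from 500 to under 2000 and 70.49% from 2000. Of the values of the genes described here 90.1% were whole, and the farthest lay 0.451 reads from a whole number. A count of 0 allows up to 3 reads, or 0.167 to 0.170 CPM, for counting error only.

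The main test was limma 3.58.1 in R 4.3.3 (group as the only term, trended and robust priors) on the deposited log2 values, with no pseudocount. It covered the 12618 genes with a mean of at least 3.32, the log2 of 10 reads. Folds came from limma-voom on the recovered reads. Samples were grouped by the treatment in their titles, 3 per group. Alternatives were limma-voom, upper-quartile centring, other filters, plain priors, the replicate number as a block, and leaving out each library. Simulated data for STM2457 against DMSO covered 12621 tested genes. There limma called 93 of 100 genes with a log2 fold of 0.4, 33 of 100 with 0.15 and 10 of 12421 unchanged genes. Few genes were thus changed there, whereas 56.3% of tested genes were called in the libraries. The adjusted p depends on that share, so these rates do not carry over to the libraries. A larger share of changed genes was not tested. A gene not called may still have changed by a little.

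The genes and lists were chosen with earlier results of these data known. Values per library are given for nucleases and BTG/TOB genes, for the 10 genes with the smallest adjusted p, and for up to 2 more per role. Each list names its 3 genes of smallest adjusted p. Hbs1l, the partner of Pelo, and the values per library of Lsm8, the counterpart of Lsm1, were added after their values were seen. Exon lengths and overlaps come from GENCODE M21 on GRCm38. In that annotation 17 of the 53 genes share exon bases with a gene on the other strand and 5 with one on the same strand, and in 6 the shared part is at least 10% of the exon bases. Processed copies of small genes such as the Lsm genes could take or add reads, which was not tested.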

Additional observations from a re-analysis of the deposited data

How the results depend on the processing

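Of the 28 genes called, 18 kept their call under all 12 alternatives, 14 higher and 4 lower: Tob1, Tob2, Cnot4, Cnot11, Edc3, Lsm1, Lsm10, Lsm11, Exosc1, Exosc2, Exosc3, Exosc4, Dis3l and Pelo rose and Cnot1, Pan2, Lsm12 and Lsm14a fell. No result reversed. With the libraries centred on their upper quartile instead of as deposited, 14 of the 52 genes rose and 18 fell, against 19 and 9, and over all tested genes 22.3% rose and 38.2% fell, against 30.7% and 25.7%. Leaving out 1 library at a time gave 15 to 19 genes higher and 4 to 8 lower, with 15 and 4 without STM2457 replicate 2, and over all tested genes 3402 to 3797 higher and 2704 to 3152 lower. The other settings gave 17 to 19 higher and 7 to 9 lower: limma-voom 19 and 9, no filter on low values 17 and 7, a filter at 50 reads 19 and 9, and no trend or robust priors 17 and 9. A fit with the replicate block gave 19 genes higher and 9 lower, with Cnot6 lost (limma adjusted p = 0.051) and Exosc5 gained (0.034). The replicate block was not used as the main fit because same-numbered libraries did not vary together (correlations of 0.05, 0.01 and 0.04 across genes), and replicate numbers alone give no pairing. DMSO replicate 2 lay above the mean of the other DMSO libraries in 23 of the 52 genes, beside 6197 of all 12618. Depth limits Btg2 and Dcp1b most, at 62.5 to 120.1 normalised reads per library.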

Other observations

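The promoter windows of these genes were also searched on both strands for 5 other short motifs, as a description with no test. The shares beside them cover all promoters in the table, whether or not the gene was tested here. No share over the promoters of tested genes alone was computed, so a trait of expressed genes in general cannot be told apart. The letters CCGGAAG, the core bound by ETS factors, occurred in 13 of the 55 windows (23.6%), beside 8.86% of the 32851 mouse promoters in the table. The E-box CACGTG occurred in 3 windows (5.45%, beside 7.15%), the cyclic AMP response element TGACGTCA in 2 (3.64%, beside 1.79%) and the NRF1 motif in 1 (1.82%, beside 0.971%). The pattern TGATGNAA, known from targets of ATF4, occurred in 0 of the 55 windows, beside 3.97% of all promoters.

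GGACT, the letters most often methylated by METTL3, occurred at a median of 0.841 per kilobase in the longest coding transcripts of the 52 tested genes, beside 1.04 over 11013 tested genes with such a transcript. The median was 0.929 for the 19 genes that rose, 1.05 for the 9 that fell and 0.713 for the 24 not called. Over all tested genes with a transcript it was 1.08 for those that rose, 1.00 for those that fell and 1.03 for those not called. Across the 52 genes, which are not independent replicates, the density and the log2 fold had a Spearman rho of 0.18, beside 0.05 over all genes with a transcript. No m6A was measured in these libraries.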
